A study of Mus musculus with 56 samples.

Results

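The liver of day-fed mice was compared between ZT4 and ZT16, zeitgeber times counted in hours from lights on, from 8 of the 56 RNA sequencing libraries of the study. The members were the 4 libraries of the day-restricted feeding (DRF) group taken at ZT4 and the 4 taken at ZT16, chosen by their labels alone. All mice were female C57BL/6J animals aged 9 weeks, kept under 12 h of light per day, and each library came from another animal. DRF mice had food in the light phase for 7 days, so ZT4 fell early in their feeding period in the light and ZT16 early in their fast in the dark. Light and food therefore changed together within DRF, and their parts in a difference cannot be told apart in these 8 libraries. The night-restricted feeding (NRF) livers of ZT4 and ZT16, with 4 animals each, were used to set the DRF changes against the same clock times with food given in the dark. The labels name no genetic change or drug in any group.

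The liver clock is a loop in which BMAL1 (gene Arntl) with CLOCK or NPAS2 switches on the Per, Cry, Nr1d1 and Nr1d2 genes, whose products repress it again. REV-ERB receptors (Nr1d1, Nr1d2) repress and ROR receptors activate Arntl, and the PAR bZIP factors DBP, TEF and HLF carry the rhythm to output genes. Feeding acts on the liver through insulin, nutrients and temperature, and fasting through glucagon and glucocorticoids, which govern glucose production, lipid synthesis and amino acid breakdown. Meal time is known as a strong cue for the phase of the liver clock.

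For each gene a count was first rebuilt out of the submitted value, though not as a whole number in every gene. Divided by a library-specific scale, with no correction for gene length, these counts give the scaled counts used here. They compare libraries with one another and not genes. Differences are ZT4 minus ZT16 on log2(scaled count + 1), a scale that understates the change of genes at low values, and the value after ± is the standard error of the limma fit over all 56 libraries with 4 animals per group. A gene is called when its p-value, adjusted by the Benjamini-Hochberg method over 25386 genes, is under 0.05. Values in the text are listed in the order of the replicate numbers, and these numbers do not pair the animals.

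The recovered counts of a library came to 372 to 544 M at ZT4 and to 390.0 to 598 M at ZT16, where M stands for 1000000 counts. The difference between these sums did not pass the test (p = 0.543, exact permutation test, two-sided). Replicates of one DRF group correlated across 13662 genes with a Pearson r of 0.984 to 0.990 in 12 pairs. In NRF r was 0.973 to 0.983 at ZT4 and 0.966 to 0.985 at ZT16, lowest in pairs with ZT16 replicate 3. Scaled counts in DRF summed to 902578 to 965981 at ZT4 and to 975421 to 1047762 at ZT16, without overlap (p = 0.0286, exact permutation test, two-sided, the smallest p that 4 against 4 allow). A length index, in which a higher value means relatively more signal in genes with long exons, ran from -0.260 to -0.156 at ZT4 and from -0.004 to 0.162 at ZT16 (p = 0.0286, again by the exact permutation test). In NRF it ran from -0.231 to 0.178 at ZT4 and from 0.044 to 0.225 at ZT16, and the groups overlapped. In step with it, the median log2 difference fell from 0.09 in the fifth of genes with the shortest exons to -0.09 in the fifth with the longest, among genes with a mean of at least 5 scaled counts. In NRF these medians were 0.06 and -0.07. Some abundant short structural RNAs, looked at after their values were seen, were also higher at ZT4. Rpph1, the RNA of ribonuclease P, was at 875, 880.3, 973 and 749 scaled counts at ZT4 and at 290.4, 327, 281 and 364 at ZT16, and Rn7s1, the RNA of the signal recognition particle, was at 2987 to 4589.7 and 1841 to 2146, and both were called, as was Rn7s2. Rn7s2 was at 1933 to 2900 at ZT4 and at 363, 1653, 365 and 397 at ZT16. Rn7sk (adjusted p = 0.0649) and Rmrp (adjusted p = 0.172), RNAs of the same kind, were not called by limma. Rn7sk was still at 1702 to 1906 at ZT4 and at 782 to 987 at ZT16, without overlap, while the groups of Rmrp overlapped. Gm47287, a 70-base locus inside the Rn7s1 gene, lay at 0.00170 to 0.00243 in the ZT4 livers, the value of 1 recovered count, and at 521, 752, 749 and 529 at ZT16, and Gm47305, inside Rn7s2, was likewise at 1 recovered count at ZT4 and at 647, 0.00163, 819 and 1203 at ZT16. In NRF both loci were at 1 recovered count in the ZT4 livers and in ZT16 replicate 3, while the other 3 NRF ZT16 livers held 532 to 862 of Gm47287. The labels name no sequencing batch, so from ZT4 and ZT16 alone a library effect and the time of day cannot be told apart here. At ZT0 and ZT24, the same hour of the light cycle, the index did not overlap. It ran from -0.203 to -0.065 at DRF ZT0 and from 0.121 to 0.256 at DRF ZT24. In NRF these ranges were -0.330 to 0.037 and 0.056 to 0.269. The short loci did not part these hours in the same way. Gm47287 was above 1 scaled count in 0 of 4 livers at ZT0 and at ZT24 under both regimens. Gm47305 was likewise in 0 of 4, except for 1 of 4 at NRF ZT24. At ZT12 and ZT20 Gm47287 was above 1 in 4 and 3 of 4 livers in DRF and in 1 and 4 of 4 in NRF. The cause of these length-related shifts was not tested.

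One further library stood apart in some genes, and other livers that did so are listed in a later section. In DRF ZT16 replicate 1, Lpin1, Zbtb16, Fkbp5, Cdkn1a and Cyp2b10 were the highest of the ZT16 group. Fkbp5 was at 158 against 36.8 to 65.7 and Cdkn1a at 5.68 against 0.935 to 1.38 in the other livers. Not every gene of the glucocorticoid response list was highest in this liver. Fkbp5 and Lpin1 are known targets of glucocorticoids. Values of these genes are given per animal, and a call that was lost without that animal is named as such.

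Of 25386 genes tested, 2944 (11.6%) were higher at ZT4 and 2604 (10.3%) were lower, 21.9% in all. A log2 difference of at least 1 was held by 197 genes in the upward direction (0.776%) and by 207 in the downward direction (0.815%), 1.59% in all. The median log2 difference over all genes was 0.000885. On the deposited values themselves the balance tipped, with 35.7% of the called genes higher at ZT4 instead of 53.1%, and under median-of-ratios scaling it was near even, at 48.9%. Among 8884 genes with a mean of at least 5 scaled counts, 37% were called, 17.2% higher and 19.8% lower. These shares, with those over all genes, are the background for the counts in the gene lists below. Groups that did not overlap were found for 3888 genes with ZT4 on top (15.3%) and 3384 with ZT16 on top (13.3%).

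**Figure D1:**
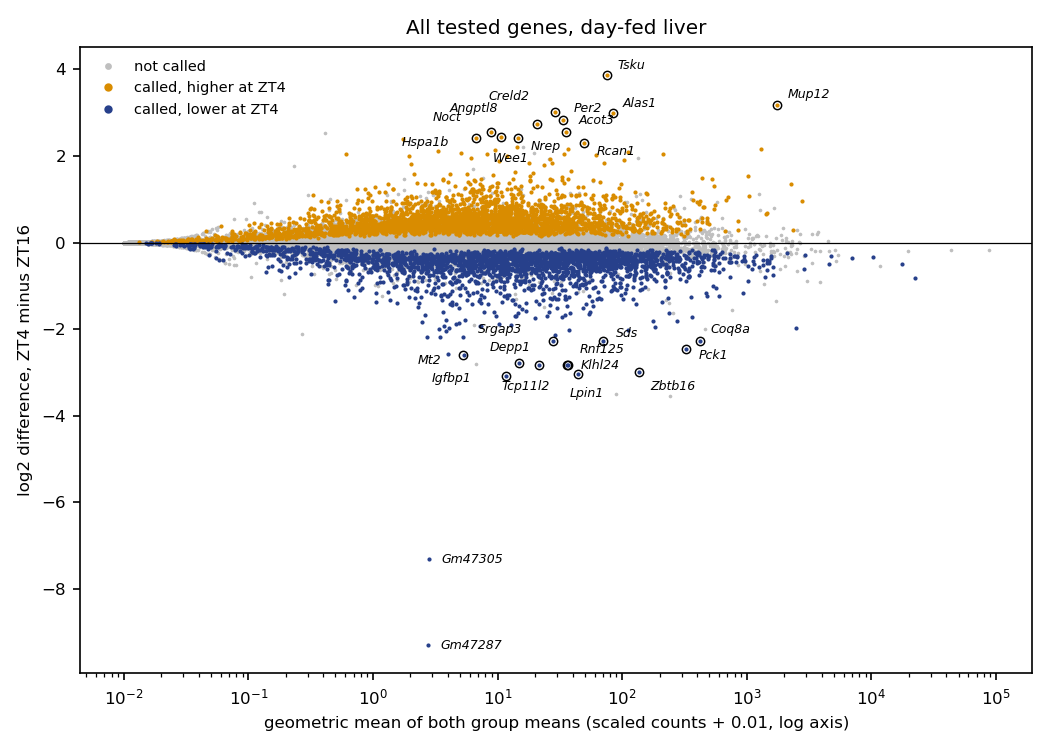
Log2 difference of ZT4 minus ZT16 in day-fed liver (y axis) against the geometric mean of both group means in scaled counts (log x axis) for 25386 genes, with called genes in colour and the genes named by rank circled. Tsku lies at the top at 3.86 and Igfbp1 lowest among the circled genes at -3.08, while 2 short loci inside signal recognition particle RNA genes, Gm47287 and Gm47305, lie far below.

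The clock genes are described first. Of 19 clock genes, all measured, 8 rose at ZT4 and 7 fell, and 4 were not called. Arntl, Clock and Npas2, which encode the activating arm, all fell at ZT4. Arntl was at 15.3, 13.0, 20 and 22.8 scaled counts in the 4 livers of ZT4 and at 71.2, 56.9, 55.6 and 56.8 in those of ZT16. The groups were well apart, and Arntl fell by 1.73 ± 0.19 (adjusted p = 1.6e-09), a ratio of means of 3.39. Clock was at 47.6, 47.5, 51.8 and 71.9 at ZT4 and at 135, 125, 94.5 and 122 at ZT16, again without overlap, and fell by 1.12 ± 0.16 (adjusted p = 3.5e-07). Npas2, at 0.443, 0.434, 0.297 and 0.456 against 3.35, 2.29, 2.23 and 2.69, fell by 1.36 ± 0.17 (adjusted p = 3.9e-08), from a low level at which the log2 scale understates the change.

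Among the repressors of the loop, Per2 and Per3 had the largest log2 differences on this scale. Per2 was at 99.0, 84.7, 91.2 and 94.2 at ZT4 and at 13.6, 11.6, 11.9 and 11.2 at ZT16, with every ZT4 liver far above every ZT16 liver, and it rose by 2.84 ± 0.26 (adjusted p = 2.1e-11). Per3 was at 22.1, 26.0, 26.1 and 27.0 against 4.49, 6.12, 5.25 and 6.76 and rose by 1.99 ± 0.20 (adjusted p = 1.6e-10). Bhlhe40, which encodes the repressor DEC1, was at 45.7, 38.3, 36.2 and 38.8 against 17.6, 16.1, 22.7 and 24.1 and rose by 0.96 ± 0.24 (adjusted p = 0.00228). Ciart, a further repressor of CLOCK and BMAL1, was at 0.859, 0.554, 0.783 and 0.792 against 0.275, 0.119, 0.0537 and 0.109 and rose by 0.62 ± 0.11 (adjusted p = 4e-05). At its low level the scale understates the change, and its ratio of means of 5.37 exceeded the 4.47 of Per3. Per1, Cry1, Cry2 and Bhlhe41 were not called. Per1 was at 6.02, 4.89, 4.82 and 6.53 at ZT4 and at 7.60, 4.01, 3.14 and 2.90 at ZT16, where replicate 1 at 7.60 exceeded all ZT4 livers, and differed by 0.35 ± 0.27 (adjusted p = 0.433). Cry1 differed by 0.38 ± 0.20 (adjusted p = 0.179) and Cry2 by 0.09 ± 0.10 (adjusted p = 0.663), both with overlapping groups. Bhlhe41 lay under 0.14 in every liver.

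Receptors that set the level of Arntl came next. Nr1d1, which encodes REV-ERBα, was at 7.63, 11.0, 6.18 and 6.81 at ZT4 and at 11.8, 19.7, 28.1 and 27.9 at ZT16, and fell by 1.32 ± 0.31 (adjusted p = 0.00131). The groups did not overlap, though the lowest ZT16 liver, at 11.8, was close to the highest ZT4 liver, at 11.0. Nr1d2, its paralog, fell by 0.56 ± 0.17 (adjusted p = 0.0101) with overlapping groups. Rora, an activator, was at 141 to 152 against 216 to 239.7 and fell by 0.61 ± 0.07 (adjusted p = 1.9e-08).

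The output factors rose with 1 exception. Dbp was at 10.9, 17, 10.4 and 9.49 at ZT4 and at 1.08, 1.97, 2.22 and 3.22 at ZT16, and rose by 2.06 ± 0.21 (adjusted p = 4.4e-10). Its exons overlap those of Sphk2 on the other strand over 18.01% of their length, and how strand was used in counting is not given in the sources used here. Hlf was at 49.3, 69.5, 54.0 and 53.0 against 22.6, 21.2, 19.1 and 20.7 and rose by 1.38 ± 0.19 (adjusted p = 2.6e-07), and Tef, at 52.1 to 60.5 against 29.6 to 33.5, rose by 0.86 ± 0.18 (adjusted p = 0.00035). Nfil3, which encodes the repressor E4BP4 that binds the same sites as DBP, fell. It was at 26.4, 25.5, 26.9 and 30.1 against 67.6, 52.0, 44.8 and 48.2 and fell by 0.92 ± 0.16 (adjusted p = 2.7e-05).

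**Figure D2:**
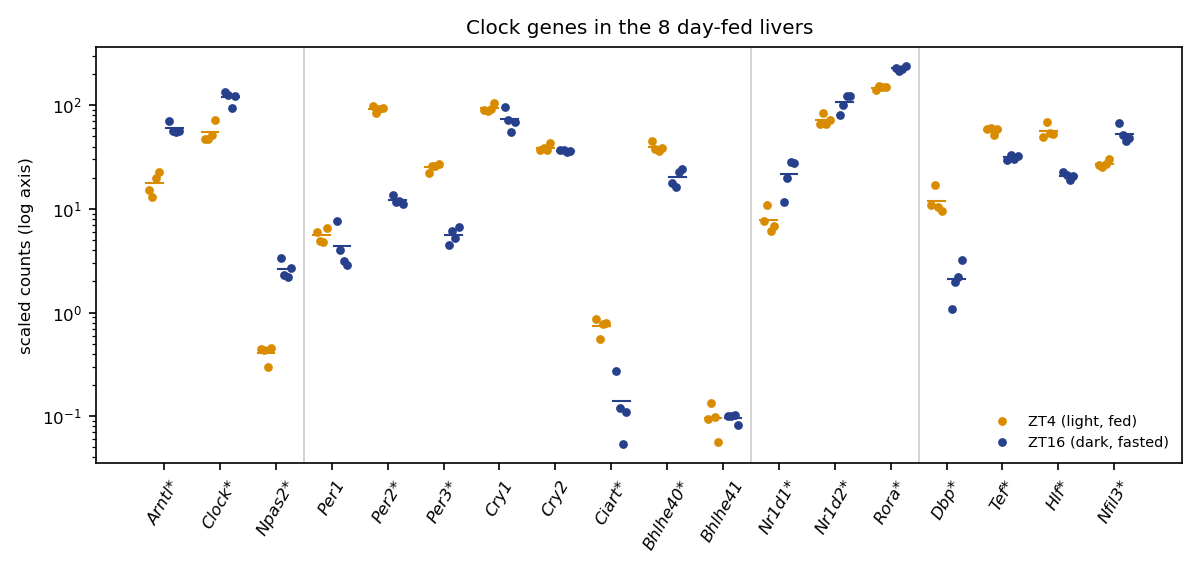
Scaled counts (log y axis) of the named clock genes in each liver of DRF ZT4 and DRF ZT16, 4 animals each, with group means. Per2, Per3 and Dbp stand higher at ZT4, Arntl, Clock, Npas2 and Nr1d1 stand lower, and Cry2 lies at 35.4 to 42.9 in all 8 livers.

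The promoters of 6 of these genes, the 3 that rose most among those with an entry (Dbp, Per3 and Hlf) and Arntl, Npas2 and Nr1d1 from those that fell, are shown to put the sequence beside the direction. They are the 250 bases before the RefSeq transcript start on GRCm38.p6, written 5′ to 3′ on the strand of the gene. Capitals mark matches to the motifs that were searched.

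Dbp, chr7:45704997-45705246, plus strand: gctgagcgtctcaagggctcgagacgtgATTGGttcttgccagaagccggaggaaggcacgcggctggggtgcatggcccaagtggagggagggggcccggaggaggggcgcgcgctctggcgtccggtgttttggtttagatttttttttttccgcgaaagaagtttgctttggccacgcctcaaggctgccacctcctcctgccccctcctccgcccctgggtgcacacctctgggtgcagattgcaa

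Per3, chr4:151044666-151044915, minus strand: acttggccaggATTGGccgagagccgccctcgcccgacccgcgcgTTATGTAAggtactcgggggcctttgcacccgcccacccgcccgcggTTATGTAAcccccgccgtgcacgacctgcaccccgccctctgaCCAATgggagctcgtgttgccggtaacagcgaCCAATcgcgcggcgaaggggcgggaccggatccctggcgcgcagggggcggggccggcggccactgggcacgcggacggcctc

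Hlf, chr11:90390918-90391167, minus strand: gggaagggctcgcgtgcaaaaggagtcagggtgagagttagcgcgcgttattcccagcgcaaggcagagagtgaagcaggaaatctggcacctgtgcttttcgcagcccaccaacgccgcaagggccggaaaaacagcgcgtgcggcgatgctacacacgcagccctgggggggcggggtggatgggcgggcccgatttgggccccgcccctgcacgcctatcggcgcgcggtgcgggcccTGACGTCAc

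Arntl, chr7:113207215-113207464, plus strand: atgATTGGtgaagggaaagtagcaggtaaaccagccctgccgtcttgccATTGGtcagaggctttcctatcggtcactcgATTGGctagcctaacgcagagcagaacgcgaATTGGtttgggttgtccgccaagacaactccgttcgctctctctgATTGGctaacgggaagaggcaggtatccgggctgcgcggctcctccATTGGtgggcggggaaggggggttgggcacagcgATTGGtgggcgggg

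Npas2, chr1:39194022-39194271, plus strand: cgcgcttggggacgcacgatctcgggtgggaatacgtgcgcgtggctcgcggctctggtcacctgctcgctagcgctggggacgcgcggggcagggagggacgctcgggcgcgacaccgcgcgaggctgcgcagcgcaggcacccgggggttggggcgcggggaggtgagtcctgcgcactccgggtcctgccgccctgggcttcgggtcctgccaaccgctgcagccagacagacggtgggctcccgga

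Nr1d1, chr11:98775378-98775627, minus strand: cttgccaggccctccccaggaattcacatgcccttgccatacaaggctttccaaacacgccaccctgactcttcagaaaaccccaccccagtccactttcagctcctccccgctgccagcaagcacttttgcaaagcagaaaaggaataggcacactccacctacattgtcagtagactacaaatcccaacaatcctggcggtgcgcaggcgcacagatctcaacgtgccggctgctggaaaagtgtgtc

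Searched on both strands were the E-box CACGTG, the D-box TTATGTAA bound by PAR bZIP factors, the ROR and REV-ERB site AGGTCA, the cAMP response element TGACGTCA with TGACG, which it contains, the CCAAT box and a heat shock element. Per3 held 2 D-boxes, with first bases 205 and 158 bases before the start, and 3 CCAAT boxes. A D-box stood in 0.643% of 13056 promoters of tested genes, in 0.896% of 1897 promoters of genes that rose and in 0.502% of 1792 of genes that fell. Hlf held 1 cAMP response element, 9 bases before the start, a motif present in 2.39% of all promoters. Arntl held 7 CCAAT boxes, all on the other strand, against 35.7% of promoters with at least 1. The E-box was found in 7.74% of all promoters, in 8.65% of those of genes that rose and in 8.54% of those of genes that fell. AGGTCA stood in 11.6% of all promoters, 12.5% for rising and 11.2% for falling genes, TGACG in 24.6%, 26.8% and 26.5%, and the heat shock element in 0.368%, 0.158% and 0.223%. Npas2 and Nr1d1 held none of these letters in this window. Promoters of 3 of 3 clock activators, 6 of 8 repressors, 3 of 4 receptors and 4 of 4 output factors were in the table.

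The genes that rose most at ZT4, outside the clock, were led by Tsku, which encodes a secreted protein of hepatocytes. Tsku was at 276, 266, 272 and 313 scaled counts in the ZT4 livers and at 35.9, 15.2, 16.9 and 12.2 in the ZT16 livers. It rose by 3.86 ± 0.44 (adjusted p = 5.6e-09), and the ratio of means was 14. Creld2, an endoplasmic reticulum (ER) protein induced by ER stress, was at 102, 75.6, 65.7 and 102 against 9.55, 8.73, 9.63 and 10.8 and rose by 3.01 ± 0.33 (adjusted p = 2.7e-09). Alas1, the first enzyme of haem synthesis, was at 241, 228, 219.7 and 247 against 46.4, 30.8, 18.1 and 24.7 and rose by 3.0 ± 0.37 (adjusted p = 2.6e-08). The ZT16 livers of Tsku and Alas1 were spread, with replicate 1 the highest in both, and still lay far below every ZT4 liver.

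Angptl8, a secreted regulator of lipoprotein lipase that insulin induces, was at 63.0, 59.0, 50.8 and 52.7 at ZT4 and at 5.93, 7.97, 8.74 and 8.14 at ZT16, and rose by 2.73 ± 0.35 (adjusted p = 5.2e-08). Noct, which encodes nocturnin, was at 30.8, 10.8, 28.1 and 29.1 against 5.15, 2.59, 2.52 and 2.47 and rose by 2.56 ± 0.54 (adjusted p = 0.00034). Its ZT4 replicate 2 stood low and its ZT16 replicate 1 high, still without overlap. Acot3, a peroxisomal acyl-CoA thioesterase of a family of close paralogs, was at 72.2, 98, 83.5 and 92.6 against 8.44, 21.0, 14.6 and 13.7 and rose by 2.56 ± 0.38 (adjusted p = 1.7e-06). Wee1, the kinase that holds CDK1 inactive, was at 26.3, 27.5, 27.5 and 26.9 against 4.47, 4.43, 4.44 and 3.53 and rose by 2.43 ± 0.15 (adjusted p = 1.2e-15). The 4 ZT4 livers agreed closely in Wee1, between 26.3 and 27.5.

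Nrep was at 37.4, 25.6, 39.3 and 39.9 against 3.87, 9.97, 6.01 and 4.39 and rose by 2.43 ± 0.30 (adjusted p = 3.4e-08). Rcan1, an inhibitor of the phosphatase calcineurin, was at 126, 102, 104 and 117 against 23.9, 22.8, 21.3 and 19.5 and rose by 2.31 ± 0.25 (adjusted p = 1.6e-09). The groups were apart in both. Hspa1b, the inducible HSP70, was at 24.8, 13.6, 13.2 and 21.0 against 2.48, 3.43, 1.94 and 2.15 and rose by 2.42 ± 0.38 (adjusted p = 4.1e-06), and its near-identical copy Hspa1a at 4.34, 2.23, 2.19 and 3.50 against 0.525, 0.780, 0.404 and 0.485, so reads may be split between them. Mup12 is one of many nearly identical major urinary protein genes, and its share of their reads is uncertain. It was at 3745, 7129.8, 3316 and 6075 at ZT4 and at 464, 1171, 344 and 417 at ZT16, and rose by 3.19 ± 1.07 (adjusted p = 0.0267). This call was lost when ZT4 replicate 2 or 4 or ZT16 replicate 1, 3 or 4 was left out, with an adjusted p of 0.0559 to 0.0706.

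At the other end stood Igfbp1, a binding protein of insulin-like growth factors that insulin represses. Igfbp1 was at 1.55, 7.49, 2.56 and 3.67 scaled counts at ZT4 and at 36.3, 30.1, 37.8 and 40.6 at ZT16, and fell by 3.08 ± 0.62 (adjusted p = 0.00017). The ratio of means was 9.47. Lpin1, a phosphatidate phosphatase, was at 12.7, 13.9, 12.3 and 16.8 against 277, 81.5, 89.4 and 106 and fell by 3.04 ± 0.30 (adjusted p = 1.4e-10). Its ZT16 replicate 1 stood far above the other 3, yet every ZT16 liver exceeded every ZT4 liver. Zbtb16, a zinc finger transcription factor, was at 39.9, 46.9, 42.3 and 58.6 against 685, 251, 305 and 367 and fell by 2.98 ± 0.42 (adjusted p = 6.1e-07), with the same liver on top.

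Rnf125, a ubiquitin ligase, was at 11.5, 15.1, 13.4 and 13.1 at ZT4 and at 99.8, 98.4, 97.3 and 104 at ZT16, and fell by 2.83 ± 0.24 (adjusted p = 2.1e-12). Klhl24, an adaptor of cullin ubiquitin ligases, was at 11.3, 15, 13.9 and 13.4 against 90.5, 97.4, 107 and 106 and fell by 2.82 ± 0.18 (adjusted p = 1.2e-15). Both had narrow groups far apart. Tcp11l2 was at 6.75, 8.23, 8.27 and 7.68 against 57.3, 58.8, 63.0 and 63.4 and fell by 2.82 ± 0.28 (adjusted p = 1.4e-10). Depp1, a target of FOXO factors, was at 3.86, 10.2, 4.16 and 3.40 against 37.6, 39.6, 49.0 and 34.9 and fell by 2.79 ± 0.48 (adjusted p = 1.9e-05). Its ZT4 replicate 2 lay above the other 3.

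Coq8a, needed for coenzyme Q synthesis, was at 168, 135, 163 and 321 at ZT4 and at 835, 871, 952 and 956 at ZT16, and fell by 2.28 ± 0.25 (adjusted p = 1.6e-09). Srgap3, a GTPase-activating protein, was at 12.9, 8.42, 12.6 and 14.5 against 94.2, 59.2, 46.6 and 53.8 and fell by 2.27 ± 0.20 (adjusted p = 9.6e-12). The groups of both were apart. Mt2, a metallothionein, was at 1.06, 1.61, 1.69 and 2.24 against 25.8, 25.1, 10.5 and 6.99 and fell by 2.61 ± 0.50 (adjusted p = 9.9e-05), with the ZT16 livers spread from 6.99 to 25.8. The exons of Mt2 overlap an antisense gene over 73.5% of their length.

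Genes of glucose production and the fasting state leaned towards ZT16. Of 14 measured, 7 fell at ZT4 and 3 rose, with a median log2 difference of -0.38. The count that rose was near the 17.2% higher among genes with a mean of at least 5 scaled counts. Pck1, the enzyme that commits oxaloacetate to glucose synthesis, was at 111, 160.3, 102 and 189.7 at ZT4 and at 992, 647, 665 and 730.1 at ZT16. Pck1 fell by 2.45 ± 0.36 (adjusted p = 1.1e-06). Irs2, the insulin receptor substrate that rises in the fasted liver, was at 10.7, 16, 11.8 and 15.6 against 56.7, 62.8, 60.5 and 67.2 and fell by 2.13 ± 0.28 (adjusted p = 1.4e-07). Sds, serine dehydratase, was at 34.3, 30.2, 27.5 and 35.2 against 189, 163, 129 and 149 and fell by 2.27 ± 0.21 (adjusted p = 4.5e-11). An antisense gene covers 29.6% of its exons. Foxo1, Crem and Ppargc1a fell by 0.36, 0.32 and 0.70. G6pc, the last enzyme of glucose release, differed by -0.70 ± 0.34 (adjusted p = 0.152) and was not called. Sik1, a kinase that restrains the glucagon programme, was among those that rose, at 23.5, 27.2, 24.5 and 26.4 against 6.79, 7.21, 7.56 and 8.80, and rose by 1.62 ± 0.24 (adjusted p = 1.3e-06). The other genes that rose were Creb3l3, by 0.47, and Fbp1, by 0.28.

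Genes of glucose uptake and storage had few calls, at shares near the 17.2% higher and 19.8% lower among genes with a mean of at least 5 scaled counts or below them. Of 12 genes of glucose uptake and glycolysis 2 rose (1 without ZT4 replicate 1, 3 or 4 or ZT16 replicate 2, 3 or 4) and 2 fell, and of 9 glycogen genes 2 rose and 0 fell, with median log2 differences of 0.08 and 0.02. Gys2, the liver glycogen synthase, was at 541, 562, 608 and 469 at ZT4 and at 236, 231, 235 and 262 at ZT16, and rose by 1.17 ± 0.11 (adjusted p = 1.1e-10). Ppp1r3b, which brings the phosphatase to glycogen, was at 132, 126, 136 and 126 against 104, 63.8, 74.3 and 60.3 and rose by 0.80 ± 0.24 (adjusted p = 0.0106). Pfkfb3, which makes the activator of phosphofructokinase, was at 23.1, 21.4, 15.2 and 14.9 against 8.86, 4.78, 9.96 and 6.37 and rose by 1.23 ± 0.26 (adjusted p = 0.00035). Pfkfb1 and Pfkl fell by 0.44 and 0.25. Pygl, glycogen phosphorylase, differed by -0.19 ± 0.12 (adjusted p = 0.291).

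The lipid genes were called in both directions within lists. Among genes with a mean of at least 5 scaled counts, 17.2% were higher and 19.8% lower. Of 15 fatty acid synthesis genes 4 rose and 3 fell, the latter near that share, with a median log2 difference of 0.40. Srebf1, the transcription factor of lipid synthesis, was at 425, 470.0, 412 and 394 at ZT4 and at 84.3, 80.0, 126 and 131 at ZT16, and rose by 2.04 ± 0.20 (adjusted p = 1.6e-10). Elovl6, a fatty acid elongase, was at 141, 115, 135 and 153 against 30.2, 33.8, 36.8 and 49.5 and rose by 1.85 ± 0.32 (adjusted p = 1.6e-05). Fasn, fatty acid synthase, was at 748, 687, 804 and 675 against 195, 224, 307 and 326 and rose by 1.5 ± 0.38 (adjusted p = 0.00253). The fourth that rose was Fads2, by 0.57. Acss2, which makes acetyl-CoA from acetate, went the other way at 159, 97.3, 133 and 152 against 332, 370.1, 437 and 545 and fell by 1.63 ± 0.31 (adjusted p = 9.7e-05). Acacb and Elovl5 fell by 1.28 and 0.78. Thrsp, Acaca and Acly, higher at ZT4 by 0.80, 0.47 and 0.32, did not pass the test.

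Cholesterol genes gave a median log2 difference of -0.19 over 24 genes, with 4 that fell and 1 that rose (0 without ZT4 replicate 1 or 3 or ZT16 replicate 4). Both counts lay below the background shares. Nsdhl was at 88.8 to 134 against 140.4 to 240.5 and fell by 0.66 ± 0.21 (adjusted p = 0.0207), and Dhcr7, at 31.4 to 54.7 against 57.5 to 68.8, fell by 0.58 ± 0.20 (adjusted p = 0.0298). Both are late enzymes of the pathway. Without ZT4 replicate 2 the adjusted p was 0.0859 for Nsdhl and 0.158 for Dhcr7, and without ZT16 replicate 4 it was 0.117 and 0.0721, which left 2 lower genes in the list in either case. Dhcr7 also lost its call without ZT4 replicate 3 (0.0507), ZT16 replicate 1 (0.0712) or ZT16 replicate 3 (0.05004). Stard4, a sterol carrier, fell by 0.41 and Ebp by 0.31.

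Fatty acid oxidation and ketone genes were close to even, with 4 of 22 higher, 2 lower and a median of 0.07. These counts were near or below the background shares. Angptl4, an inhibitor of lipoprotein lipase induced by fasting, was at 3.41, 3.72, 4.14 and 5.08 at ZT4 and at 19.3, 16.8, 9.12 and 13.6 at ZT16, and fell by 1.59 ± 0.32 (adjusted p = 0.00021). Ppara, the nuclear receptor of fasting lipid use, was at 203 to 236 against 134 to 176 and rose by 0.48 ± 0.14 (adjusted p = 0.0109), with an adjusted p of 0.0605 without ZT16 replicate 1. Cpt1a, the gate of mitochondrial fatty acid entry, rose by 0.47 ± 0.14 (adjusted p = 0.00906), and Bdh1, a ketone enzyme, rose by 0.53 ± 0.14 (adjusted p = 0.00529). Their groups did not overlap. Cpt2 rose by 0.45. Ehhadh fell by 0.44, and the list kept 1 lower gene when any 1 liver other than ZT4 replicate 4 was left out.

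Bile acid genes split likewise, with 3 of 13 higher and 4 lower. These counts were not far above the 17.2% higher and 19.8% lower among genes with a mean of at least 5 scaled counts. Abcb11, the bile salt export pump, was at 347, 388, 379.7 and 442 at ZT4 and at 813, 852, 951 and 1032 at ZT16, and fell by 1.23 ± 0.10 (adjusted p = 6.4e-13). Cyp27a1, of the alternative synthesis route, was at 455 to 639 against 730.2 to 864 and fell by 0.60 ± 0.11 (adjusted p = 2.3e-05). Slc27a5 and Baat fell by 0.35 and 0.28. Cyp7a1, the rate-limiting enzyme of bile acid synthesis, was at 216, 188, 211 and 262 against 178, 131, 44.0 and 91.6 and rose by 1.13 ± 0.38 (adjusted p = 0.0249). The ZT16 livers of Cyp7a1 spread widely, and without ZT16 replicate 3 the difference was 0.75 with an adjusted p of 0.188. The call was also lost without ZT16 replicate 4 (0.0551) or ZT4 replicate 4 (0.0678). Abcg5 and Abcg8, which together form the sterol exporter, rose by 0.85 and 0.55. Without ZT4 replicate 2 or 3 the list held 2 lower genes.

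Amino acid breakdown and urea cycle genes moved one way where they were called. Of 21 genes 8 fell at ZT4 and 0 rose, with a median of -0.34. Got1, cytosolic aspartate aminotransferase, was at 95.1, 89.4, 87.6 and 97.7 at ZT4 and at 452, 363, 277 and 362 at ZT16, and fell by 1.94 ± 0.22 (adjusted p = 4.5e-09). Tdo2, the first enzyme of tryptophan breakdown, was at 579, 746, 552 and 628 against 1675, 1371, 1200.1 and 1353 and fell by 1.16 ± 0.15 (adjusted p = 1.1e-07). Arg1, arginase, was at 732, 774, 758 and 758 against 1494, 1292, 1423 and 1425 and fell by 0.90 ± 0.11 (adjusted p = 1.7e-08). Cps1, the entry enzyme of the urea cycle, was at 16150.4, 16617, 16488 and 17826 against 34223, 26884, 28096 and 29307 and fell by 0.82 ± 0.19 (adjusted p = 0.0009). The groups were apart in all 4. Slc25a15, Aass, Sdsl and Otc also fell, by 0.77, 0.63, 0.44 and 0.34.

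**Figure D3:**
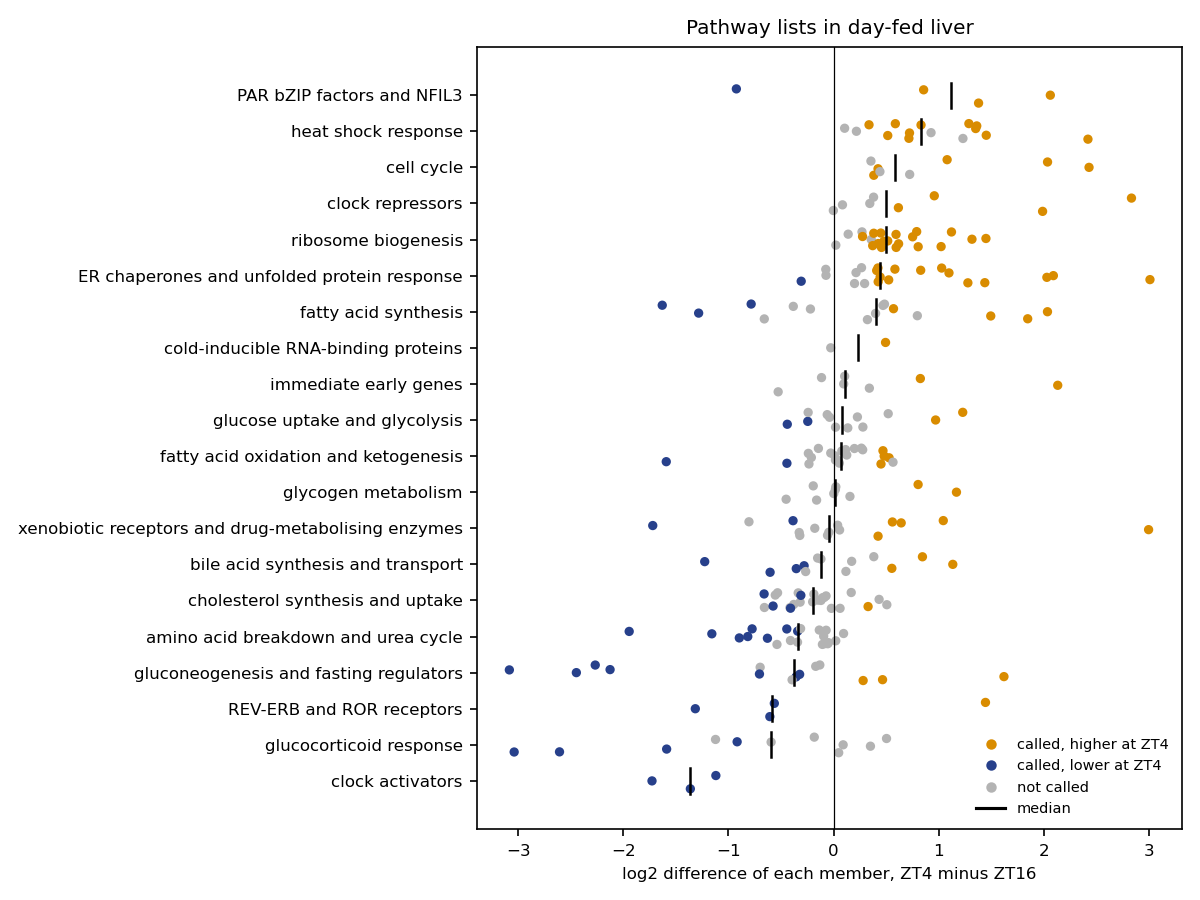
Log2 difference of ZT4 minus ZT16 (x axis) for each member of 20 gene lists (y axis), with called members coloured by direction and the list median as a bar. Heat shock and ribosome biogenesis members all lie above 0, and amino acid breakdown members lie mostly below it.

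Protein folding genes were higher at ZT4. Of 15 heat shock genes 11 rose and 0 fell, with a median log2 difference of 0.83. Bag3, a co-chaperone of HSP70, was at 126, 83.4, 82.9 and 97.1 at ZT4 and at 41.2, 38.6, 27.0 and 32.7 at ZT16, and rose by 1.45 ± 0.22 (adjusted p = 1.5e-06). Dnaja1, an HSP40 protein, was at 152, 148, 151 and 179.9 against 65.7, 62.3, 57.8 and 58.3 and rose by 1.35 ± 0.15 (adjusted p = 1.6e-09). Hspa8 and Hsp90ab1, which are expressed throughout, rose by 0.83 and 0.52. Hspd1, the mitochondrial chaperonin, differed by 0.11 ± 0.09 (adjusted p = 0.503). Of 2 cold-inducible RNA-binding protein genes Rbm3 rose by 0.50 ± 0.14 (adjusted p = 0.00836), and Cirbp differed by -0.03 ± 0.19 (adjusted p = 0.966).

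ER chaperones and genes of the unfolded protein response rose in 14 of 21 cases, with 1 that fell and a median of 0.44. Hspa5, the chief ER chaperone BiP, was at 263, 229.8, 204 and 229 at ZT4 and at 55.8, 45.9, 50.2 and 62.7 at ZT16, and rose by 2.09 ± 0.24 (adjusted p = 9.5e-09). Manf, a secreted ER stress protein, was at 148, 116, 104 and 139 against 28.7, 27.2, 30.6 and 33.8 and rose by 2.03 ± 0.23 (adjusted p = 4e-09). Dnajb9, an ER co-chaperone, was at 54.2, 47.7, 37.1 and 43.8 against 16.2, 15.5, 17 and 15.6 and rose by 1.44 ± 0.22 (adjusted p = 2.7e-06). No ZT16 liver reached the ZT4 range in these genes. Xbp1 and Ddit3, transcription factors of the response, rose by 0.58 and 0.42, and Atf6 fell by 0.31, a call lost without ZT4 replicate 3.

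Ribosome biogenesis genes rose in 18 of 22 cases and 0 fell, with a median of 0.50. Nolc1, a nucleolar phosphoprotein, was at 12.1, 11.1, 11.7 and 11.1 at ZT4 and at 3.98, 4.19, 2.82 and 3.38 at ZT16, and rose by 1.45 ± 0.18 (adjusted p = 2.3e-08). Nop58 and Nop2, of nucleolar RNA modification, rose by 1.12 and 1.02. Rrp12, at 24.1 to 25.2 against 6.58 to 12.8, rose by 1.32 ± 0.40 (adjusted p = 0.0139). Their groups did not overlap, and Rrp12 lost its call without ZT16 replicate 4 (adjusted p = 0.0534). Myc differed by 0.36 ± 0.18 (adjusted p = 0.164).

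Glucocorticoid response genes fell in 4 of 11 cases and 0 rose, with a median of -0.59. Beside Lpin1 and Mt2, Klf9, a transcription factor induced by the hormone, was at 8.26, 9.77, 9.25 and 10.6 at ZT4 and at 36.0, 27.3, 29.6 and 29.2 at ZT16, and fell by 1.59 ± 0.15 (adjusted p = 3.9e-11). Cdkn1a, the cell cycle inhibitor p21, was at 0.597, 0.586, 0.486 and 0.482 against 5.68, 1.3, 1.38 and 0.935 and fell by 0.92 ± 0.24 (adjusted p = 0.00399). Without ZT16 replicate 1, Cdkn1a fell by 0.52 with an adjusted p of 0.0789 and was not called. Fkbp5, at 24.8, 34.3, 27.3 and 34.6 against 158, 36.8, 65.7 and 50.5, differed by -1.12 ± 0.44 (adjusted p = 0.0603) and Tsc22d3, another target, by 0.09 ± 0.23 (adjusted p = 0.868). Part of this list is highest in 1 animal, and the state of that animal was not tested.

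In the direction with 0 calls, an unadjusted limma p under 0.05 was held by 1 lower glycogen gene and by 0 genes of the amino acid, heat shock, ribosome biogenesis, glucocorticoid and cell cycle lists.

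Immediate early genes were called in 2 of 7 cases. That share lay between the 21.9% called over all genes and the 37% among genes with a mean of at least 5 scaled counts. Atf3, a stress-induced transcription factor, was at 29.4, 20, 20.2 and 17.4 at ZT4 and at 3.15, 3.52, 5.59 and 4.45 at ZT16, and rose by 2.13 ± 0.32 (adjusted p = 2.2e-06). Jun rose by 0.83 ± 0.24 (adjusted p = 0.00863). Fos and Egr1 differed by 0.10 and -0.11 and were not called.

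Xenobiotic genes rose in 5 of 15 cases and fell in 2, led by Alas1. Among genes with a mean of at least 5 scaled counts 17.2% were higher and 19.8% lower, so the count that fell lay below background. Cyp2a5, a drug-metabolising enzyme with a close paralog, was at 1042, 1043, 1049 and 918 at ZT4 and at 549.8, 406, 470.2 and 548 at ZT16, and rose by 1.04 ± 0.26 (adjusted p = 0.00227). Cyp2b10, a target of the receptor CAR, was at 172, 153, 199 and 258 against 1108, 629.8, 586 and 395 and fell by 1.72 ± 0.38 (adjusted p = 0.00059). Nr1i3, which encodes CAR itself, was at 42.6 to 50.1 against 26.4 to 34.6 and rose by 0.64 ± 0.13 (adjusted p = 0.00024). Tomm40l on the other strand covers 74.9% of the exons of Nr1i3. Without ZT4 replicate 2, ZT4 replicate 3 or ZT16 replicate 3 the list held 1 lower gene.

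Cell cycle genes rose in 5 of 8 cases and 0 fell, with a median of 0.58. Ccnd1, cyclin D1, was at 74.0, 75.0, 81.1 and 55.3 at ZT4 and at 16.1, 14.9, 18.2 and 16.7 at ZT16, and rose by 2.04 ± 0.28 (adjusted p = 2.8e-07). Mki67, a marker of dividing cells, was at 3.78, 3.41, 4.61 and 2.39 against 0.733, 1.67, 0.792 and 1.42 and rose by 1.08 ± 0.32 (adjusted p = 0.00981). The cyclin gene Ccnb1 lay under 0.64 in every liver and rose by 0.42 ± 0.14 (adjusted p = 0.02), a call lost without ZT4 replicate 1 (0.0883) or ZT4 replicate 3 (0.0821). A gene on the other strand covers 23.4% of the exons of Ccnd1.

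Among annotated long non-coding RNA genes, Gm35986 was at 57.2, 35.8, 66.9 and 53.3 at ZT4 and at 10.9, 10.9, 15.1 and 15.8 at ZT16, and rose by 1.92 ± 0.34 (adjusted p = 2.3e-05). Gm42839 rose by 1.42 ± 0.16 (adjusted p = 3.8e-09). Gm48702, of whose exons 60.8% lie opposite Ttc36, rose by 1.47 ± 0.25 (adjusted p = 1.4e-05). In the other direction, Gm44787 was at 0.992, 0.928, 1.32 and 1.92 against 11.9, 11.3, 13.9 and 12.9 and fell by 2.58 ± 0.28 (adjusted p = 1.4e-09). Gm5524 fell by 1.26 ± 0.12 (adjusted p = 7.1e-11), and Gm43305, spread from 3.04 to 23.7 at ZT16, fell by 2.04 ± 0.51 (adjusted p = 0.00235).

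The NRF livers show where these changes followed the regimen. At ZT4 the NRF mice were fasting in the light and at ZT16 feeding in the dark, so the lighting matched DRF and the food did not. In NRF, 3479 genes (13.7%) were higher at ZT4 and 2633 (10.4%) lower, 24.1% in all. Of the 2944 genes higher at ZT4 under DRF, 427 (14.5%) were also higher in NRF, 743 (25.2%) were lower and 1774 (60.3%) were not called. Of the 2604 lower genes, 386 (14.8%) were lower, 697 (26.8%) were higher and 1521 (58.4%) were not called. Among the 197 genes that rose by at least 1, 103 (52.3%) were lower in NRF and 12 (6.09%) higher. Among the 207 that fell by at least 1, 111 (53.6%) were higher in NRF and 15 (7.25%) lower.

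**Figure D4:**
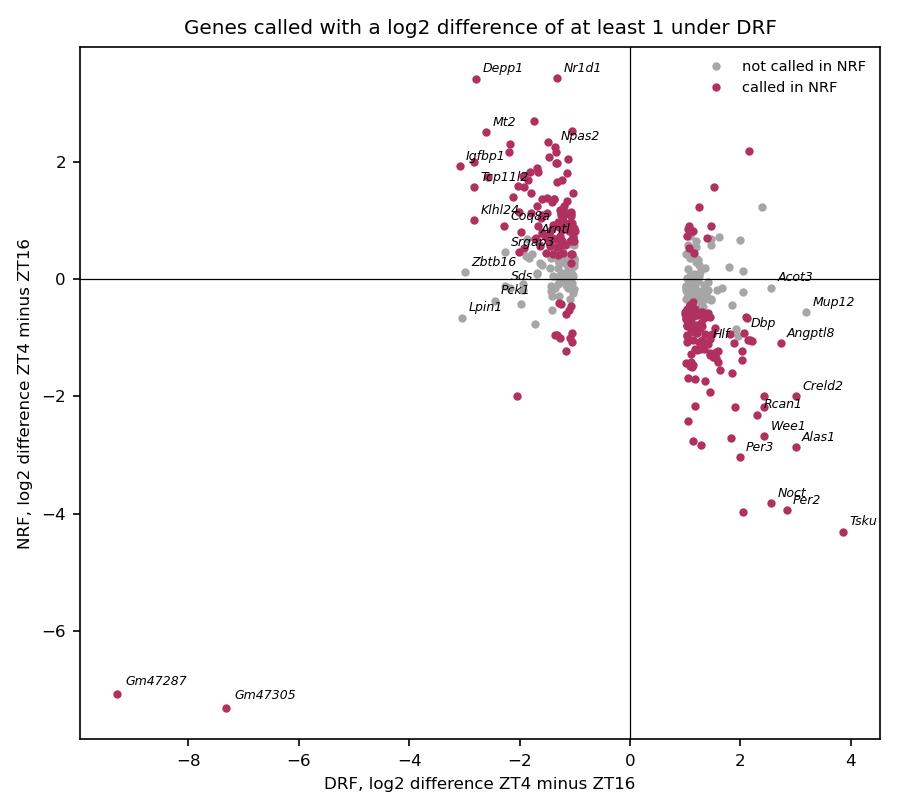
Log2 difference of ZT4 minus ZT16 in NRF (y axis) against that in DRF (x axis) for the 404 genes called under DRF with an absolute difference of at least 1, coloured by their call in NRF. Tsku, Per2 and Noct sit high in DRF and low in NRF, and Nr1d1 and Depp1 the reverse.

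The change in DRF minus the change in NRF was tested in the same fit. It passed the test in 5492 genes (21.6%), 2623 positive (10.3%) and 2869 negative (11.3%). Per2 in the NRF livers was at 9.28, 5.0, 4.25 and 3.88 at ZT4 and at 108, 105, 93.3 and 79.0 at ZT16, and the changes differed by 6.77 ± 0.37 (adjusted p = 1.4e-18). Wee1 was at 2.41 to 3.59 and 18.5 to 28.4 in NRF, with a difference of 5.11 ± 0.22 (adjusted p = 7.3e-22). Tsku gave 8.17 ± 0.62 (adjusted p = 5.1e-14). Asap2, a GTPase-activating protein, was at 3.25, 3.06, 3.66 and 3.73 against 15.5, 16.1, 16.3 and 15.1 in DRF and at 16.3 to 22.0 against 4.43 to 6.94 in NRF, a difference of -3.50 ± 0.18 (adjusted p = 7.1e-19). Camk1d, a calcium-dependent kinase, was at 85.8 to 105 against 304 to 378 in DRF and at 242 to 372 against 71.5 to 107 in NRF, with -3.65 ± 0.19 (adjusted p = 7.1e-19). Riok2, a kinase of ribosome assembly, gave 1.99 ± 0.11 (adjusted p = 8.3e-19), and Zfyve26 gave -1.83 ± 0.10 (adjusted p = 8.3e-19). In these genes the direction turned between the regimens.

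The lists differed between regimens in the same term. Positive differences were called in 13 of 15 heat shock, 16 of 21 ER and 18 of 22 ribosome biogenesis genes, and 0 were called negative. In NRF these lists held 12, 15 and 10 genes that were lower at ZT4 and 0 that were higher. The term was called negative in 3 of 3 clock activators and positive in 7 of 8 repressors. In the amino acid list it was called in 5 of 21 genes, 3 positive and 2 negative, while 14 of 21 were lower at ZT4 in NRF and 8 in DRF.

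A further contrast set the DRF change against the NRF change between the matching feeding states, ZT16 minus ZT4, so that food agreed and light did not. It passed the test in 5613 genes (22.1%), 3198 positive (12.6%) and 2415 negative (9.51%). Timp3, an inhibitor of matrix metalloproteinases, was at 17.4, 14.5, 14.9 and 17.5 against 30.5, 27.5, 27.5 and 26.5 in DRF and at 12.7 to 15.9 against 29.0 to 34.8 in NRF, so ZT4 was lower under both regimens, and the contrast was -1.86 ± 0.11 (adjusted p = 3.9e-16). Syn3 on the other strand overlaps 21.3% of its exons. Itpr1 and Itpr2, calcium channels of the ER, gave -1.23 ± 0.11 (adjusted p = 2.9e-10) and -1.17 ± 0.11 (adjusted p = 1.5e-09). Man1a2, a mannosidase, gave -0.99 ± 0.09 (adjusted p = 1e-09), and Zfyve1 gave -1.02 ± 0.10 (adjusted p = 1.5e-09). Col4a1, a basement membrane collagen, was at 195, 183, 179 and 217 against 129.6, 132, 117 and 124 in DRF and 170.0 to 234 against 89.6 to 114 in NRF, with 1.60 ± 0.16 (adjusted p = 1.5e-09). For the amino acid list this contrast was negative in 13 of 21 genes and positive in 0. Lighting and time of day are shared by the ZT4 livers of both regimens and cannot be told apart here. The length-related shift of the libraries ran the same way in both regimens and so also enters this contrast. Rn7s2 gave 4.36 ± 0.81 in it and Gm47287 -16.4 ± 2.2. With the trend over exon length removed, 3038 genes were positive and 2476 negative.

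Between ZT4 and ZT16, Pck1 and Lpin1 changed more in DRF than in NRF. In NRF, Pck1 was at 115 to 317 at ZT4 and at 204 to 431 at ZT16, and differed by -0.36 ± 0.36 (adjusted p = 0.522), and the changes differed by -2.09 ± 0.51 (adjusted p = 0.0016). Lpin1 was at 23.3 to 44.8 against 42.8 to 81.9 in NRF, with a difference between regimens of -2.38 ± 0.42 (adjusted p = 2.2e-05). This does not hold for the whole day. Daily means of Pck1 ran from 145 (ZT20) to 1036 (ZT12) in NRF and from 141 (ZT4) to 1009.5 (ZT0) in DRF. Those of Lpin1 ran from 25.9 (ZT24) to 208 (ZT12) in NRF and from 13.9 (ZT4) to 138 (ZT16) in DRF.

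Placed in the daily profile of 7 times, ZT4 held the highest DRF mean of Per2, Tsku, Creld2, Wee1, Rcan1 and Hspa1b, and ZT16 the highest of Arntl and Lpin1. The ZT16 mean of Lpin1, 138, includes replicate 1 at 277, beside 81.5 to 106 in the other livers. Per2 reached a mean of 92.3 at ZT4 in DRF and of 96.3 at ZT16 in NRF. Arntl reached 60.1 at ZT16 in DRF and 75.0 at ZT24 in NRF. For Nr1d1 the highest DRF mean, 29.1, came at ZT20 and was below the NRF mean of 83.5 at ZT8. Pck1 was highest at ZT0 in DRF, at 1009.5, and lowest at ZT4, at 141. Dbp was highest at ZT0 in DRF, at 38.9, and at ZT12 in NRF, at 47.3. ZT0 and ZT24, the same hour of the light cycle, were kept apart here, and their means can differ. Jun in DRF was highest at ZT0, at 7.05, and lowest at ZT24, at 1.35. A highest mean at ZT0 or ZT24 is therefore that of the named time only. These profiles are descriptions without a test.

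**Figure D5:**
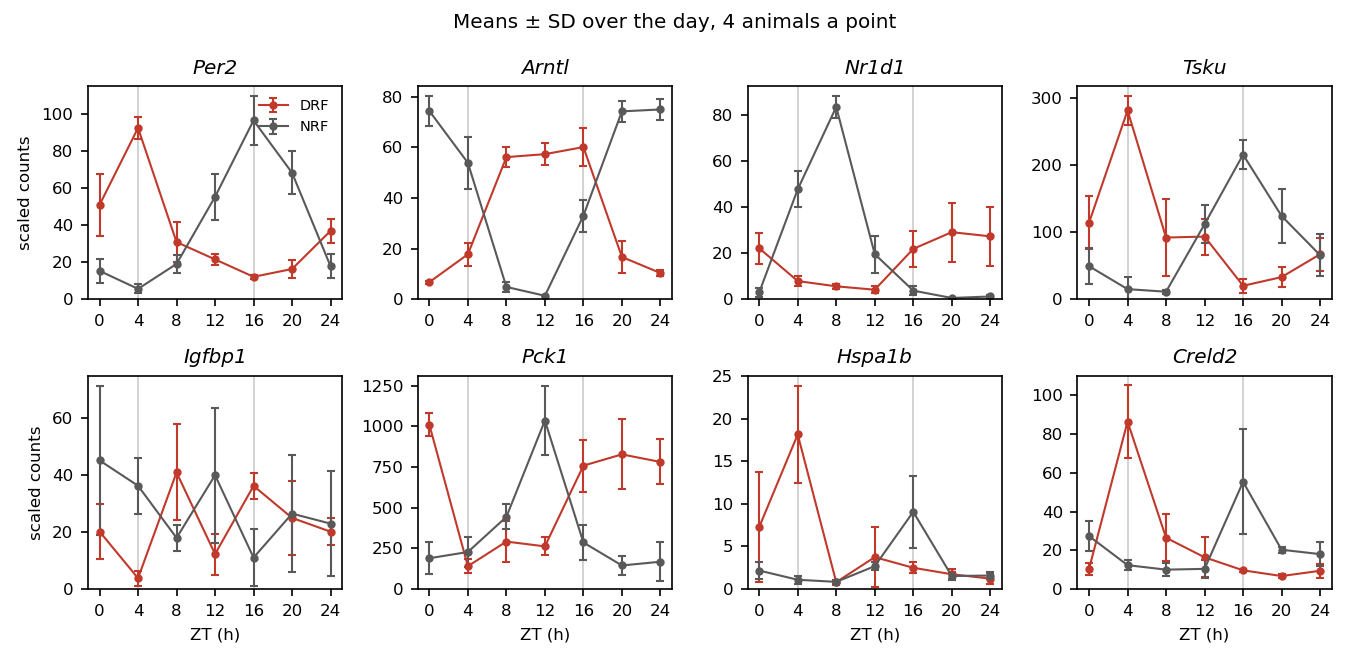
Group means of scaled counts (y axis) over 7 zeitgeber times (x axis, hours) for chosen genes in DRF and NRF liver, 4 animals per point, with bars for the standard deviation. Per2 is highest at ZT4 in DRF and at ZT16 in NRF, and Arntl is highest at ZT16 in DRF and at ZT24 in NRF.

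The livers carried the markers of hepatocytes, as labelled, with 11 hepatocyte genes summing to 132268 to 139588 scaled counts at ZT4 and to 152551 to 169979 at ZT16. Of these 4 fell at ZT4 (Cps1, Fga, Fgb and Apob) and 0 rose. Other liver cells followed. Of 9 sinusoidal endothelial genes 3 fell, with sums of 453 to 483 against 544 to 590.1. Of 10 stellate cell genes 2 fell (1 without ZT4 replicate 3 or ZT16 replicate 3), with sums of 787 to 854 against 935 to 1040. The stellate count was near the 19.8% that fell among genes with a mean of at least 5 scaled counts. Of 10 Kupffer cell genes 0 were called (2 higher without ZT4 replicate 1), with sums of 735 to 1049 against 832 to 978. Cholangiocyte, lymphocyte, neutrophil and erythroid lists had 0 calls of 6, 9, 5 and 6 genes. At an unadjusted limma p under 0.05 these lists held 0, 2, 1 and 0 genes higher and 0 lower, and the Kupffer list held 2 higher. Lymphocyte sums were 2.54 to 4.0 against 1.43 to 2.93, and erythroid sums 919 to 1909.6 against 930.5 to 1302. Of the acinar list 2 of 8 genes were measured, and of the adipocyte list only Cfd, called higher from values near 0, at 0.0247 to 0.0657 against 0 to 0.0102. The sum of scaled counts over all genes was also higher at ZT16 without overlap, as given above, and the marker sums were not corrected for it. In bulk tissue, fewer cells of a type and less RNA per cell cannot be told apart, and the part of these shifts in the differences above was not tested.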

How the data were processed

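RNA sequencing libraries of 56 livers were used, in 14 groups of regimen and time with 4 animals each, grouped by the labels alone. Of these, 8 (DRF ZT4 and ZT16) formed the comparison. Per the labels, ribosomal RNA was depleted, libraries were stranded and reads paired, although the molecule field says polyA RNA. The submitters' processing notes name CASAVA 1.8, featureCounts 1.5.0-p3, mm10 and GRCm38.p6, with no role given. The values are named TPM in the file the authors deposited, but they follow a logarithm of counts divided by exon length, so they were treated as a score. Counts were recovered by fitting each library. The annotated exon length served for 21035 genes, and for 2055 a length was searched for instead. A further 1964 genes with annotated and 143 with searched length were marked as wide. Another 189 were too deep to judge. Whole numbers are not claimed for the wide and deep genes, among them Pck1, Alas1, Clock, Cps1 and Arg1. Of values up to 100 counts in genes left out of the fit, 97.5% lay within 0.05 of a whole number, where 10% would by chance. Recovered counts exceed the depth of the study and are not reads. Of 25415 genes listed, 29 could not be rebuilt, among them Ttr and Scd1, and 25386 were tested. Of 24268 Ensembl identifiers 24247 matched the annotation. The remaining 1147 are assembled loci.

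The planned unit was linear TPM. The test was kept and applied to log2(scaled count + 1): limma 3.58.1 in R 4.3.3, with 14 group means over all 56 libraries, a mean-variance trend and Benjamini-Hochberg adjustment at 0.05. The NRF change, the difference between regimens and the contrast of matching feeding states came from the same fit. Single library measures were compared by an exact permutation test with scipy 1.17.1. The script was tested on simulated data. Named genes were the 12 protein-coding genes with the largest rise and the 12 with the largest fall (called, groups apart, a mean of at least 10 in 1 group), all clock genes, up to 4 called members per list, 6 genes with the smallest p for each of 2 further contrasts, and 3 non-coding genes per direction. The genes and lists were chosen with earlier results of these data known. Alternatives were other pseudocounts, a filter, other scaling, removal of the length trend, the deposited values, a replicate block, the 8 libraries alone and leaving out each liver. Promoters came from RefSeq. Columns of the tables left unassigned numbered 0, and the transcript and circRNA tables were not used here. Results of some genes are not reported here.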

Additional observations from a re-analysis of the deposited data

Results flagged for a closer look

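In 23 of 216 sets of 4 livers checked (10.6%), 1 liver stood far from the other 3 by Dixon's ratio, the gap to the nearest other liver divided by the range of the 4, above the 95% critical value. Chance gives about 1 in 20 such sets, and genes of 1 liver are not independent. DRF ZT16 replicate 2 stood apart in Mup12 (1171 against 344 to 464, ratio 0.856) and Ccnb1 (0.147 against 0.0244 to 0.0389, ratio 0.882). DRF ZT4 replicate 2 stood apart in Noct (10.8 against 28.1 to 30.8, ratio 0.862), Nrep (25.6 against 37.4 to 39.9, ratio 0.83), Depp1 (10.2 against 3.40 to 4.16, ratio 0.888), Bdh1 (101 against 72.2 to 76.6, ratio 0.846) and Abcg5 (207 against 141 to 150.5, ratio 0.857). DRF ZT16 replicate 1 stood apart in Noct (5.15 against 2.47 to 2.59, ratio 0.955), Lpin1 (277 against 81.5 to 106, ratio 0.876), Arntl (71.2 against 55.6 to 56.9, ratio 0.917), Cdkn1a (5.68 against 0.935 to 1.38, ratio 0.905) and Zfyve1 (147 against 128 to 129.9, ratio 0.919). DRF ZT16 replicate 4 stood apart in Wee1 (3.53 against 4.43 to 4.47, ratio 0.957), Bhlhe41 (0.0827 against 0.0995 to 0.102, ratio 0.861) and Gys2 (262 against 231 to 236, ratio 0.834). DRF ZT4 replicate 3 stood apart in Npas2 (0.297 against 0.434 to 0.456, ratio 0.865) and Tef (52.1 against 59.2 to 60.5, ratio 0.845). DRF ZT4 replicate 4 stood apart in Dnaja1 (179.9 against 148 to 152, ratio 0.895), Cyp2a5 (918 against 1042 to 1049, ratio 0.943), Man1a2 (128 against 123 to 124, ratio 0.908), Zfyve1 (84.1 against 70 to 71.6, ratio 0.888) and length index (-0.156 against -0.260 to -0.248, ratio 0.889). DRF ZT4 replicate 1 stood apart in Zfyve26 (13.7 against 15.4 to 15.6, ratio 0.901).

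The DRF change differed from the NRF change in 5492 genes by a test of the difference itself in the limma fit. Of the 41 genes named by rank or as clock genes 38 were among them. Those named by rank were picked for a large DRF change, which is part of this difference, so a high count was favoured in advance. On the log2 scale, the difference was positive in Tsku 8.17, Creld2 5, Alas1 5.87, Per2 6.77, Angptl8 3.82, Noct 6.39, Acot3 2.7, Wee1 5.11, Nrep 4.42, Hspa1b 4.6, Rcan1 4.62, Per1 2.58, Per3 5.03, Cry1 2.17, Cry2 0.612, Ciart 1.5, Bhlhe40 3, Dbp 2.99, Tef 2.87 and Hlf 2.49. It was negative in Igfbp1 -5.02, Lpin1 -2.38, Zbtb16 -3.11, Rnf125 -4.84, Tcp11l2 -4.4, Klhl24 -3.84, Depp1 -6.22, Mt2 -5.12, Pck1 -2.09, Coq8a -3.19, Srgap3 -2.74, Sds -2.16, Arntl -2.42, Clock -1.11, Npas2 -3.63, Nr1d1 -4.75, Rora -0.653 and Nfil3 -1.09. Mup12, Bhlhe41 and Nr1d2 did not pass this test. No explanation of these differences was tested.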

How the results depend on the processing

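On the log2 scale the pseudocount set the number of genes past a difference of 1. With 0.1 in place of 1 these were 477 higher and 400 lower at ZT4 in DRF, with 5 they were 80 and 109, and on the deposited values plus 0.1 they were 323 and 317. The deposited values, which are compressed by the authors' logarithm, gave 1865 higher and 3362 lower genes in DRF (35.7% higher), 2181 and 4241 in NRF (34% against 56.9%), and 1841 and 4532 in the contrast of matching feeding states (28.9% against 57%). Fewer genes were tested with a minimum mean of 5 scaled counts, which left 1694 higher in DRF, 1546 higher in NRF, 1686 negative differences between regimens and 1420 positive ones between matching feeding states. With the 8 libraries of NRF alone, 1134 genes were higher and 1045 lower. The cause of these shifts was not tested beyond that. Leaving out 1 liver at a time gave 2372 to 2671 higher and 2139 to 2439 lower genes in DRF, 191 to 201 and 200 to 216 past a difference of 1, 2716 to 3711 and 2054 to 2726 in NRF, 2430 to 2731 and 2620 to 2971 between regimens, and 2746 to 3564 and 2117 to 2693 between matching feeding states.

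Among named genes the sign turned in Bhlhe41, at 0.00302 with the length trend removed and at -0.0180 to 0.0153 when 1 liver was left out, and in Cry2, at -0.019 on the deposited values. Neither gene was called. On the deposited values Tef, Bdh1, Cpt1a, Ppara, Ppp1r3b, Cyp7a1, Cyp2a5 and Rrp12 lost their call. With the 8 libraries alone Cdkn1a and Cyp7a1 lost theirs (adjusted p = 0.118 and 0.0779), and with a pseudocount of 5 Ccnb1 did (0.055). Median-of-ratios scaling evened the split of calls, to 2735 higher and 2858 lower genes in DRF (48.9% higher), 49.5% higher in NRF and 48.2% positive between matching feeding states. Median-of-ratios scaling and removal of the length trend moved the median of all genes by under 0.1 and ended the call of 0 named genes. A fit with the replicate number as a block gave 2946 higher and 2606 lower genes in DRF and ended the call of 0 named genes. Under each of these 3 settings the glucose uptake and glycolysis list held 1 higher gene in place of 2. The numbers do not pair the animals, as same-numbered deviations correlated at -0.108 to 0.144 and 2 of 4 numbers correlated best with their own.

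With 4 animals per group, differences near the spread between livers could not be resolved, and a p-value that missed the threshold does not show equal levels. In these libraries 1 scaled count stood for 391 to 613 recovered counts, which are not reads. At low scaled counts, as in Npas2, Ciart, Bhlhe41 and Ccnb1, the scale understates any change, and Bhlhe41 was not called. Removal of the length trend moved 3 of 60 list counts by over 1.5 times. From ZT4 and ZT16 alone, a library effect cannot be told apart from the time of day in the length-related shift in DRF. Its cause was not tested.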

Other observations

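Other gene classes were looked at after their values were seen, and no cause was tested. Over all genes 11.6% were higher and 10.3% lower in DRF, and 13.7% and 10.4% in NRF. Of 1650 antisense genes 257 were higher at ZT4 in DRF and 54 lower, and in NRF 386 were higher and 34 lower. Of 65 replication-dependent histone genes 25 were higher and 2 lower in DRF, with a median log2 difference of 0.18, and 20 were higher and 0 lower in NRF. Of 307 small nuclear RNA genes 23 were higher and 2 lower in DRF and 19 and 20 in NRF, and of 430 small nucleolar RNA genes 24 were higher and 5 lower in DRF and 18 and 13 in NRF. The shares of both classes that were higher in DRF lay below the 11.6% over all genes. Of 15082 protein-coding genes 2200 were higher and 2211 lower. Ribosomal protein genes, 78 in all, had 4 higher and 2 lower, both below the shares over all genes, beside the 18 of 22 ribosome biogenesis genes that rose. Most histone messages and small nuclear RNAs carry no poly(A) tail.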
